A study of Mus musculus with 48 samples.

Results

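Pericentral and Wnt target genes of the mouse liver were followed across treatments with antisense oligonucleotides. They are 10 genes chosen by symbol: Glul, Oat, Axin2, Lgr5, Rnf43, Znrf3, Tbx3, Rhbg, Lect2 and Rspo3. Of these, 9 were matched by symbol in the table of 23930 genes, and all 9 were among the 12672 genes that passed the low count filter. Rhbg, which encodes an ammonium transporter, is not analysed here.

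RNA came from bulk mouse liver taken 24, 72 or 168 h (days 1, 3 and 7) after dosing began. The groups received LX-A1656, LX-A2003 or LX-A3928, which are modified gapmers against Scarb1, the gene for a lipoprotein receptor, or PBS. A gapmer is a short oligonucleotide that pairs with its target RNA and recruits RNase H to cut it. There were 12 groups of 4 libraries, 48 in all, and nothing in the labels says whether these were separate animals. If they were not, the p-values measure only the technical spread between libraries. The sources used here do not state strain, sex, age, dose or the chemistry of the 3 oligonucleotides. In bulk tissue, fewer cells of a type and less RNA per cell cannot be told apart.

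Hepatocytes differ in their enzymes along the axis between the portal and the central vein. Endothelial cells of the central vein secrete Wnt ligands and R-spondin 3, the product of Rspo3. R-spondins bind the receptors LGR4 and LGR5 and remove the ubiquitin ligases RNF43 and ZNRF3, which otherwise clear Frizzled receptors from the cell surface. Beta-catenin then enters the nucleus, joins TCF factors and turns on target genes. Several of these targets, Axin2, Rnf43 and Znrf3 among them, restrain the pathway in turn. Glutamine synthetase (Glul) and ornithine aminotransferase (Oat) belong to the nitrogen metabolism of the pericentral zone, Tbx3 is a transcription factor made there, and Lect2 is a secreted protein of hepatocytes known as a beta-catenin target.

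On mouse build GRCm38 (GENCODE M21), the genes lie at chr1:153899944-153909723 (Glul, plus strand), chr7:132557478-132576398 (Oat, minus), chr11:108920349-108950783 (Axin2, plus), chr10:115450311-115587780 (Lgr5, minus), chr11:87662722-87735539 (Rnf43, plus), chr11:5276324-5444847 (Znrf3, minus), chr5:119670669-119684724 (Tbx3, plus), chr13:56542464-56548502 (Lect2, minus) and chr10:29452416-29535867 (Rspo3, minus). RefSeq promoter windows on GRCm38.p6 were matched for 5 of the 10 genes. The sequences below are the 250 bases before the start site of 3 of them, on the strand of the gene, shown because Glul and Lect2 had the most similar group means of the 9 genes while Oat ran apart from both. Windows run from chr1:153899679-153899928 for Glul, chr7:132576399-132576648 for Oat and chr13:56548539-56548788 for Lect2, and capitals mark a match to the TCF/LEF motif CTTTGAT or its reverse complement ATCAAAG.
Glul: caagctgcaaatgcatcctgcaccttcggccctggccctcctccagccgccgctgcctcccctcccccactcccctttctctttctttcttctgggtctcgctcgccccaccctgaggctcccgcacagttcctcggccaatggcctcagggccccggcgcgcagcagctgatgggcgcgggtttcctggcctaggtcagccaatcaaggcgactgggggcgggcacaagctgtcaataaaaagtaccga
Oat: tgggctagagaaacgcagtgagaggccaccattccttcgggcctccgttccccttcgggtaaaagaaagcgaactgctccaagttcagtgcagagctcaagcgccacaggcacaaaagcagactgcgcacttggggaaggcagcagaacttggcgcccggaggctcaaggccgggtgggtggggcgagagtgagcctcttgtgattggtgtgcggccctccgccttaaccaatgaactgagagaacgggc
Lect2: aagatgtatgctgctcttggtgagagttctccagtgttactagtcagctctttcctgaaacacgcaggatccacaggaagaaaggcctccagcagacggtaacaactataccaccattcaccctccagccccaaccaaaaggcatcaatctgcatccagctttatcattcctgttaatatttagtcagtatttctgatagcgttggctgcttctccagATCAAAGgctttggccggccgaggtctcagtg
The Lect2 sequence holds 1 match, whose first base lies 32 bases before the start site. Both strands of each window of 300 bases (250 before the start site and 50 after) were searched, and no other matched gene held these letters. Over all RefSeq mouse promoters, 1225 of 32851 windows (3.73%) held the motif. A match is a description of the letters and says nothing of binding.

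Library totals ranged from 8140065 to 17191129 counts, with a median of 10659453. Scarb1, the targeted gene, was lower in every oligonucleotide group than in PBS livers at the same time, with log2 fold changes of -6.10 to -2.50. Alb, which encodes albumin, held 12297 to 65259.6 CPM (read counts scaled to a common library size) over the 48 libraries, so the defining hepatocyte marker was present throughout. Chi-square values per degree of freedom between replicates ran from 5.75 to 215.5. PBS livers at 168 h, the control for all 3 oligonucleotides at that time, were uneven too. Their replicates 2 and 4 were close (6.61), while the other pairs ran from 27.95 to 43.69. After the values were seen, 5 libraries were picked as standing apart from their group. They were LX-A3928 168 h replicate 3, LX-A2003 168 h replicate 4, and, at 72 h, LX-A1656 replicate 1, LX-A2003 replicate 1 and LX-A3928 replicate 4. LX-A1656 168 h replicate 4, at 43.4 to 48.13 against the rest of its group, was not picked.

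At 24 h, few of the 9 genes differed from PBS. With LX-A1656 and with LX-A2003 none passed the edgeR test at an adjusted p under 0.05, where 2.86% of all genes passed with LX-A1656 (0.986% higher, 1.88% lower) and 2.09% with LX-A2003 (0.939% higher, 1.15% lower). By DESeq2 the count was also 0 in both, as it was at an unadjusted p under 0.05, which 12.3% and 12.5% of all genes reached. The median log2 fold changes of the 9 genes were 0.21 and 0.09, beside 0.02 and 0.01 over all genes tested. With LX-A3928, 2 of 9 genes fell and 0 rose, against 3.26% of all genes (1.68% higher, 1.58% lower), with a median of 0.14 beside 0.01, and the groups did not overlap for 4 of the 9 and for 16.7% of all genes.

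At 72 h the comparisons separated. With LX-A1656, 5 of the 9 genes fell and 0 rose, where 48.2% of all genes passed (24.7% higher, 23.4% lower). The median log2 fold change of the 9 was -0.67, beside 0.05 over all genes tested, and the groups did not overlap for 4 of the 9 and for 46.6% of all genes. With LX-A2003, 1 gene fell and 0 rose, where 12% of all genes passed (5.48% higher, 6.55% lower), with a median of 0.10 beside 0.02. With LX-A3928 none passed by edgeR or DESeq2, where 9.8% of all genes passed (4.47% higher, 5.33% lower), with a median of -0.05 beside 0.02. At an unadjusted p under 0.05 the count with LX-A3928 was 1, beside 21.9% of all genes. Groups did not overlap for 1 of the 9 with LX-A2003 and 1 with LX-A3928, beside 22.6% and 16.7% of all genes.

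At 168 h the 9 genes moved in both directions. With LX-A1656, 2 rose and 5 fell, where 63.9% of all genes passed (34.1% higher, 29.7% lower), and the median was -0.78, beside 0.10 over all genes. With LX-A2003, 2 rose and 1 fell, where 55.1% passed (29.8% higher, 25.3% lower), and the median was 0.24, beside 0.04. With LX-A3928, 3 rose and 1 fell (3 and 0 without replicate 3), where 48% passed (27.3% higher, 20.7% lower), and the median was 0.35, beside 0.08. The share of the 9 genes that passed was a little above that of all genes with LX-A1656, and under it with LX-A2003 and LX-A3928. Groups did not overlap for 5 of the 9 genes in LX-A1656 livers, 3 in LX-A2003 livers and 0 in LX-A3928 livers, beside 54.3%, 43.8% and 30.9% of all genes.

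These counts rest on the scaling of the libraries. Scaling by library totals in place of the trimmed mean of M values (TMM) raised the median log2 fold change of all genes to 0.27 for LX-A1656 at 72 h, and to 0.56 (LX-A1656), 0.45 (LX-A2003) and 0.39 (LX-A3928) at 168 h. The share of called genes that were higher moved with it, to 66.6% for LX-A1656 at 72 h (51.4% with TMM), and at 168 h to 73.7% for LX-A1656 (53.5%), 77.7% for LX-A2003 (54%) and 77.9% for LX-A3928 (56.9%). At 168 h the 9 genes then gave 2 higher and 3 lower with LX-A1656, 5 higher and 0 lower with LX-A2003, and 5 higher and 0 lower with LX-A3928. In those fits 8772, 7550 and 6602 of the 12672 genes tested were called (8092, 6987 and 6087 with TMM). With LX-A3928 at 72 h the share was 34.3%, beside 45.6% with TMM.

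**Figure D1:**
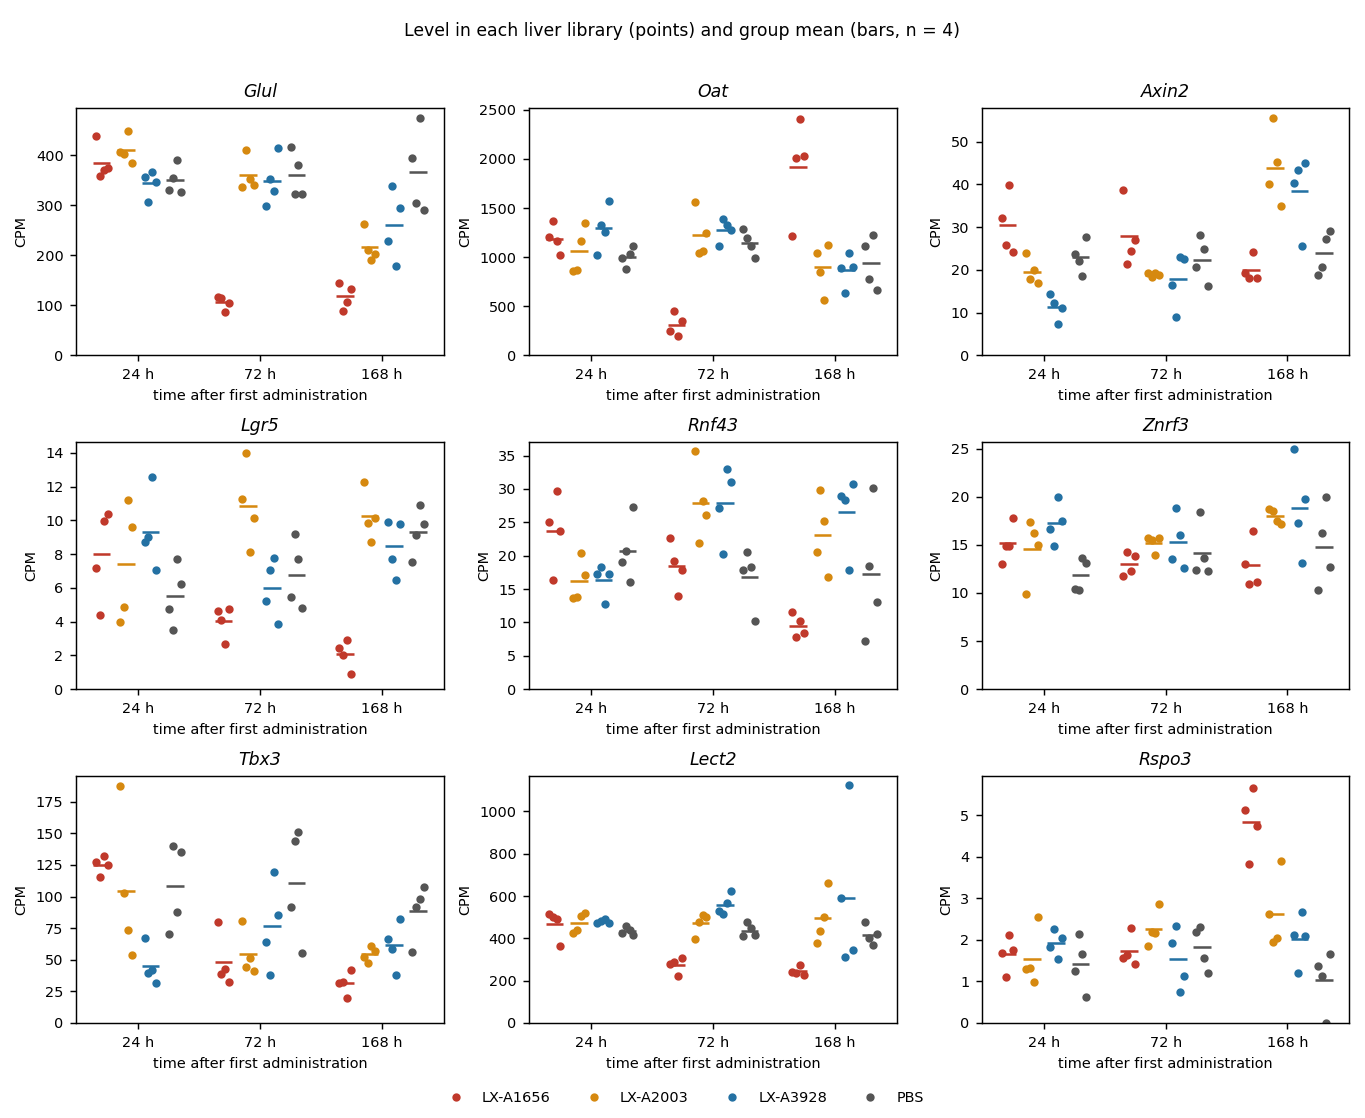
Levels of the 9 genes in CPM (y axes, linear, starting at 0) by treatment at 24, 72 and 168 h. Each point is 1 library and each bar the mean of 4, with the oligonucleotides left of PBS; Glul bars of LX-A1656 at 72 and 168 h stand at 106 and 118 CPM, and those of PBS at 359.8 and 366 CPM.

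Glul, the marker of the innermost pericentral hepatocytes, was lower with all 3 oligonucleotides at 168 h and, with LX-A1656, already at 72 h. LX-A1656 livers at 72 h held 117, 115, 87.5 and 105 CPM, against 416, 322, 379.7 and 322 CPM in PBS livers. The groups were far apart, and Glul fell (log2 fold change -1.76 ± 0.16 SE, adjusted p = 1.75e-12). At 168 h LX-A1656 livers held 144, 89.4, 107 and 132 CPM, LX-A2003 livers 263, 210.2, 191 and 202 CPM and LX-A3928 livers 228, 338, 178 and 295 CPM, against 395, 304, 475 and 291 CPM in PBS livers. LX-A1656 again gave the deepest drop (log2 fold change -1.63 ± 0.16 SE, adjusted p = 5.64e-12). The LX-A2003 libraries all lay under the PBS range (log2 fold change -0.76 ± 0.16 SE, adjusted p = 8.60e-05), while those of LX-A3928 overlapped it (log2 fold change -0.49 ± 0.16 SE, adjusted p = 0.00907). The last of these calls was lost without LX-A3928 replicate 3 or PBS replicate 3 (-0.35 to -0.34, adjusted p = 0.0606 to 0.0822). It was also lost with the compared libraries alone in the fit (-0.46, adjusted p = 0.215). With library totals as the scaling, Glul kept its direction but was not called with LX-A2003 (-0.33, adjusted p = 0.0749) or LX-A3928 (-0.15, adjusted p = 0.467). At 24 h no comparison passed: Glul averaged 385 ± 35.8 CPM in LX-A1656 livers, 410.1 ± 26.8 in LX-A2003 livers and 344 ± 26.2 in LX-A3928 livers, against 350.4 ± 29.1 CPM in PBS livers (SD, n = 4 each).

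Oat, a mitochondrial enzyme that takes the amino group from ornithine, moved in opposite directions at 72 and 168 h with LX-A1656. At 72 h LX-A1656 livers held 249, 450.0, 198 and 349.8 CPM, against 1289.8, 1192, 1112 and 989 CPM in PBS livers. No LX-A1656 library reached the lowest PBS library, and Oat fell (log2 fold change -1.88 ± 0.22 SE, adjusted p = 1.46e-09). At 168 h LX-A1656 livers held 1211, 2007, 2407 and 2028 CPM, against 1115, 778, 1220.3 and 663 CPM in PBS livers. Oat rose (log2 fold change 1.02 ± 0.22 SE, adjusted p = 7.70e-05), with 3 LX-A1656 libraries above the PBS range and 1 inside it. With LX-A2003 and LX-A3928 Oat was not called at any time in the main fit. Its log2 fold changes at 168 h were -0.08 ± 0.22 and -0.12 ± 0.22 (SE), which became 0.36 and 0.19 with library totals. With the compared libraries alone Oat was called higher with LX-A3928 at 24 h (0.36, adjusted p = 0.0495).

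Lhpp, which encodes a phosphatase and was listed among other pericentral genes, followed Oat most closely of all genes tested (Pearson r = 0.974 over the 12 group means of log2 CPM). The 2 genes lie on chromosome 7 on opposite strands, 34.2 kb apart, with 1 protein-coding gene, Nkx1-2, between them. Lhpp averaged 20.6 CPM in LX-A1656 livers at 72 h, against 68.3 CPM in PBS livers, and 113 CPM in LX-A1656 livers at 168 h, against 63.3 CPM in PBS livers. It thus fell at 72 h and rose at 168 h (log2 fold changes -1.73 and 0.84), as Oat did.

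Lect2 was lower with LX-A1656 at both later times. At 72 h LX-A1656 livers held 279, 287, 222 and 308 CPM, against 410.2, 476, 448 and 414 CPM in PBS livers (log2 fold change -0.67 ± 0.21 SE, adjusted p = 0.00615). At 168 h LX-A1656 livers held 239, 235, 272 and 229 CPM, against 477, 403, 369 and 422 CPM in PBS livers (log2 fold change -0.78 ± 0.21 SE, adjusted p = 0.0011). The groups did not overlap at either time, though with library totals the 168 h call was lost (-0.30, adjusted p = 0.148). LX-A3928 livers at 168 h were scattered, at 593, 311, 1124 and 344 CPM, and their rise (log2 fold change 0.50 ± 0.21 SE, adjusted p = 0.0392) rested on replicate 3, 1 of the libraries that stood apart. Without that library the log2 fold change was -0.01 (adjusted p = 0.981).

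Tbx3 was lower with 1 or more oligonucleotides at each time. LX-A3928 livers at 24 h held 67.4, 39.8, 42.0 and 31.5 CPM, against 70.5, 140.3, 88.0 and 135 CPM in PBS livers, and Tbx3 fell with no overlap (log2 fold change -1.26 ± 0.34 SE, adjusted p = 0.0274). This call was lost without LX-A3928 replicate 2, 3 or 4 or PBS replicate 2 or 4 (-1.23 to -1.11, adjusted p = 0.0832 to 0.117). LX-A1656 livers at 72 h held 80.1, 38.5, 42.7 and 32.7 CPM and LX-A2003 livers 80.8, 44.6, 51.6 and 41.2 CPM, against 91.9, 144, 151 and 55.6 CPM in PBS livers. Tbx3 fell with both, although 1 library of each and the PBS range overlapped (log2 fold changes -1.19 and -1.02, adjusted p = 0.0037 and 0.0416). The call with LX-A2003 was lost without LX-A2003 replicate 2, 3 or 4 or PBS replicate 2 or 3 (-0.99 to -0.83, adjusted p = 0.101 to 0.159). LX-A1656 livers at 168 h held 31.7, 32.1, 19.7 and 42.0 CPM, against 56.0, 91.8, 98.0 and 108 CPM in PBS livers, and Tbx3 fell with no overlap (log2 fold change -1.50 ± 0.35 SE, adjusted p = 0.000243). With LX-A2003 and LX-A3928 at 168 h it averaged 54.2 ± 5.70 and 61.4 ± 18.4 CPM, against 88.4 ± 22.6 CPM with PBS, and did not pass (adjusted p = 0.0755 and 0.205). The difference with LX-A2003 was called with the compared libraries alone (-0.68, adjusted p = 0.0153) and without PBS replicate 1 (-0.87, adjusted p = 0.039).

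Axin2, a scaffold of the beta-catenin destruction complex and itself a broad Wnt target, was lower with LX-A3928 at 24 h and higher with LX-A2003 and LX-A3928 at 168 h. At 24 h LX-A3928 livers held 14.3, 12.2, 7.24 and 11.0 CPM, against 23.6, 22.1, 18.5 and 27.8 CPM in PBS livers. The groups did not overlap, and Axin2 fell (log2 fold change -1.04 ± 0.23 SE, adjusted p = 0.0047). At 168 h LX-A2003 livers held 40.0, 55.5, 45.3 and 34.9 CPM and LX-A3928 livers 40.4, 43.3, 25.6 and 45.0 CPM, against 18.7, 20.7, 27.2 and 29.1 CPM in PBS livers. All LX-A2003 libraries lay above the PBS range (log2 fold change 0.88 ± 0.22 SE, adjusted p = 0.000962), and 3 of 4 LX-A3928 libraries did (log2 fold change 0.69 ± 0.22 SE, adjusted p = 0.00951). LX-A1656 livers did not pass at any time and held 19.2, 18.0, 24.1 and 18.1 CPM at 168 h (log2 fold change -0.27 ± 0.23 SE, adjusted p = 0.308; 0.20 with library totals).

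The drops of Axin2 and Tbx3 at 24 h stood beside a difference in a clock gene, which was chosen after its values were seen. Dbp, a transcription factor whose RNA cycles over the day, held 58.9 to 85.1 CPM in LX-A3928 livers at 24 h, 5.62 to 13.4 CPM in LX-A1656 livers and 6.28 to 28.7 CPM in LX-A2003 livers, against 0.18 to 2.23 CPM in PBS livers. Dbp was also higher with LX-A3928 at 72 h (log2 fold change 2.50), and at 168 h in LX-A1656, LX-A2003 and LX-A3928 livers (2.37, 3.45 and 4.40). At 72 h it did not pass the edgeR test with LX-A1656 or LX-A2003 (adjusted p = 0.0643 and 0.354). In PBS livers Dbp itself averaged 1.16 CPM at 24 h, 16.5 CPM at 72 h and 0.894 CPM at 168 h. The part of these differences in the results for the 9 genes at any of the 3 times was not tested.

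Lgr5, a receptor for R-spondins, was lower with LX-A1656 at 72 and 168 h. At 72 h LX-A1656 livers held 4.60, 4.09, 2.69 and 4.73 CPM, against 5.48, 9.17, 7.70 and 4.79 CPM in PBS livers (log2 fold change -0.75 ± 0.31 SE, adjusted p = 0.0399). That call was lost without LX-A1656 replicate 2 or 3 or PBS replicate 2 or 3 (-0.75 to -0.57, adjusted p = 0.0616 to 0.164), and with library totals (-0.54, adjusted p = 0.16). At 168 h LX-A1656 livers held 2.45, 2.03, 2.92 and 0.885 CPM, against 7.54, 9.11, 10.9 and 9.78 CPM in PBS livers, with every LX-A1656 library well under the PBS range (log2 fold change -2.15 ± 0.32 SE, adjusted p = 1.02e-07). LX-A2003 and LX-A3928 livers passed at no time in the main fit and averaged 10.3 ± 1.48 and 8.46 ± 1.68 CPM at 168 h, against 9.33 ± 1.41 CPM with PBS (SD, n = 4 each). With the compared libraries alone Lgr5 was called higher with LX-A3928 at 24 h (0.755, adjusted p = 0.0422). It was also called higher in that fit with LX-A2003 at 72 h (0.66, adjusted p = 0.0371).

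Rnf43 and Znrf3, the ligases that remove Frizzled receptors, gave few calls. Rnf43 held 11.5, 7.82, 10.3 and 8.45 CPM in LX-A1656 livers at 168 h and 28.9, 28.3, 17.9 and 30.8 CPM in LX-A3928 livers, against 7.29, 18.4, 30.1 and 13.1 CPM in PBS livers, which were the more scattered. It fell with LX-A1656 (log2 fold change -0.86 ± 0.26 SE, adjusted p = 0.00445) and rose with LX-A3928 (log2 fold change 0.63 ± 0.26 SE, adjusted p = 0.0417), in both cases with overlap. The drop was lost without PBS replicate 3 (-0.45, adjusted p = 0.124) and with library totals (-0.38, adjusted p = 0.204), and the rise without LX-A3928 replicate 1, 2 or 4 or PBS replicate 1, 2 or 4 (0.37 to 0.66, adjusted p = 0.0567 to 0.23). The rise was also lost with the compared libraries alone (0.66, adjusted p = 0.223) and without the low count filter (0.63, adjusted p = 0.0618). At 72 h Rnf43 did not pass with LX-A2003 (log2 fold change 0.74, adjusted p = 0.0517) or LX-A3928 (0.74, adjusted p = 0.061). With the compared libraries alone it was called in both (0.73, adjusted p = 0.0128 and 0.0308), and with LX-A2003 also by DESeq2 (0.74, adjusted p = 0.0425). Znrf3 passed in none of the 9 comparisons with PBS in the main fit. With library totals Znrf3 was called higher at 168 h with LX-A2003 (0.69, adjusted p = 0.00403) and LX-A3928 (0.68, adjusted p = 0.00548). With the compared libraries alone Znrf3 was called higher with LX-A3928 at 24 h (0.54, adjusted p = 0.0212). Its lowest adjusted p in the main fit was for LX-A3928 at 24 h, with 14.9 to 19.9 CPM in LX-A3928 livers, against 10.3 to 13.6 CPM in PBS livers (log2 fold change 0.54 ± 0.19 SE, adjusted p = 0.107).

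Rspo3, the R-spondin of the central vein endothelium, was the member with the fewest counts and was higher at 168 h. LX-A1656 livers at 168 h held 5.12, 3.82, 5.66 and 4.75 CPM (69, 64, 97 and 59 counts) and LX-A2003 livers 2.62, 1.95, 2.05 and 3.90 CPM (38, 21, 23 and 58 counts). PBS livers held 1.38, 1.14, 0 and 1.65 CPM (11, 11, 0 and 13 counts). Rspo3 rose with LX-A1656 (log2 fold change 2.18 ± 0.39 SE, adjusted p = 4.46e-06) and with LX-A2003 (log2 fold change 1.32 ± 0.40 SE, adjusted p = 0.00475), with no overlap in either. With the compared libraries alone in the fit, the LX-A2003 call was lost (1.35, adjusted p = 0.0637). LX-A3928 livers held 2.12, 1.21, 2.68 and 2.09 CPM and did not pass (log2 fold change 0.91 ± 0.41 SE, adjusted p = 0.0634), although it was called with library totals (1.20, adjusted p = 0.0147) and by DESeq2 (0.93, adjusted p = 0.0431). No comparison at 24 or 72 h passed. Stellate cell and fibroblast markers were higher in the same livers: the summed level of the 10 markers was 1784 to 2569 CPM in LX-A1656 livers, 1111 to 1735 CPM in LX-A2003 livers and 944 to 1781 CPM in LX-A3928 livers, against 591 to 685 CPM in PBS livers. The 5 central vein endothelial markers tested, Rspo3 among them, gave 2 higher and 1 lower with LX-A1656, 3 higher and 1 lower with LX-A2003 (2 and 1 without replicate 4) and 1 higher and 1 lower with LX-A3928. Over all genes, 63.9%, 55.1% and 48% passed. With the marker that did not pass the low count filter included, the 6 listed markers summed to 34.6 to 46.5 CPM in LX-A1656 livers, 19.6 to 27.5 CPM in LX-A2003 livers and 18.1 to 20.7 CPM in LX-A3928 livers, against 14.1 to 20.6 CPM in PBS livers. The part of either marker list in the Rspo3 result was not tested.

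**Figure D2:**
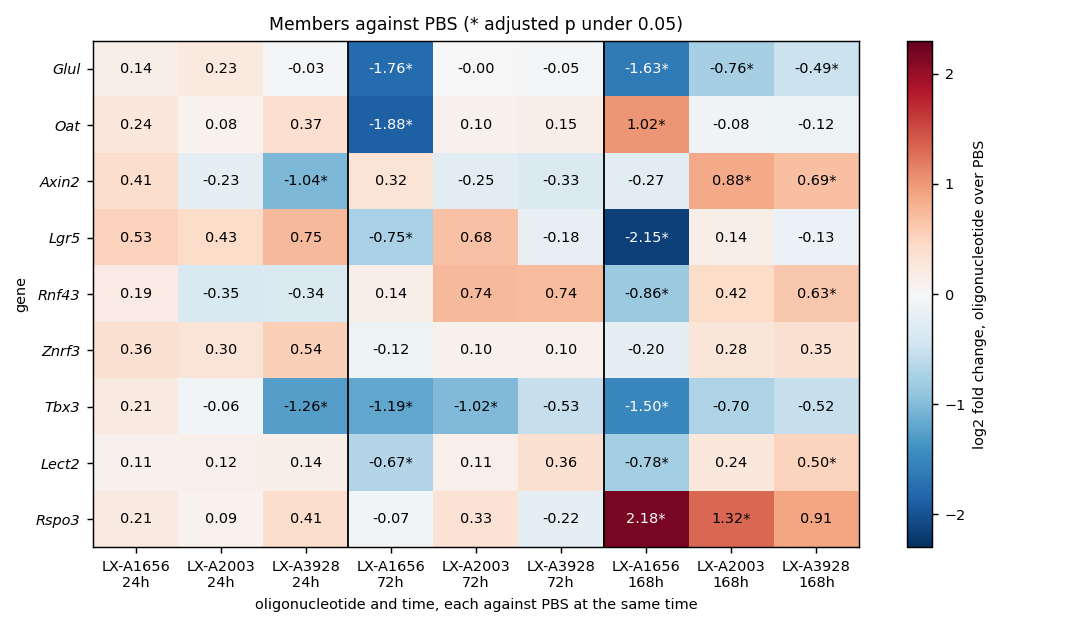
Log2 fold change against PBS (colour) of the 9 genes (rows) in the 9 comparisons (columns), with an asterisk where the adjusted p was under 0.05. The column of LX-A1656 at 168 h holds 7 asterisks, and those of LX-A1656 and LX-A2003 at 24 h and LX-A3928 at 72 h hold 0.

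Set against each other at the same time, LX-A2003 and LX-A3928 each differed from LX-A1656. These are 9 pairs of groups, with p-values adjusted over all genes tested in each, and no structures were at hand to set beside the differences. At 168 h, 8 of 9 genes passed between LX-A2003 and LX-A1656 (6 higher, 2 lower), where 32.1% of all genes passed, and 9 of 9 between LX-A3928 and LX-A1656 (7 higher, 2 lower), where 41.7% passed. In both, Glul, Axin2, Lgr5, Rnf43, Znrf3 and Lect2 were higher than with LX-A1656, while Oat and Rspo3 were lower. Lgr5 had the widest difference, 2.29 for LX-A2003 over LX-A1656 (log2 scale, adjusted p = 1.33e-07) and 2.01 for LX-A3928 over LX-A1656 (adjusted p = 9.78e-07). Tbx3 was the gene that passed with LX-A3928 (0.97, adjusted p = 0.02) and not with LX-A2003 (0.79, adjusted p = 0.0716). For LX-A2003 against LX-A1656, the Znrf3 call was lost without LX-A1656 replicate 1, 2 or 4 or LX-A2003 replicate 1, 2 or 3 (0.41 to 0.49, adjusted p = 0.0598 to 0.129), and the Rspo3 call without LX-A1656 replicate 1, 3 or 4 or LX-A2003 replicate 1, 2 or 3 (-0.87 to -0.75, adjusted p = 0.0615 to 0.128). For LX-A3928 against LX-A1656, the Znrf3 call was lost without LX-A1656 replicate 2 or LX-A3928 replicate 1 (0.38 to 0.48, adjusted p = 0.0557 to 0.102), and the Tbx3 call without LX-A1656 replicate 3 or LX-A3928 replicate 4 (0.80 to 0.80, adjusted p = 0.0783 to 0.0806). With library totals Znrf3 was called in neither.

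At 72 h, 5 of 9 genes passed between LX-A2003 and LX-A1656 (4 higher, 1 lower), where 35.9% of all genes passed, and 4 of 9 between LX-A3928 and LX-A1656 (3 higher, 1 lower), where 40.6% passed. Oat differed by 1.98 and 2.03 on the log2 scale for LX-A2003 and LX-A3928 over LX-A1656, and Glul by 1.76 and 1.72, with all 4 adjusted p-values at or under 1.04e-09. Axin2 was the gene that was lower than with LX-A1656 (-0.56 for LX-A2003, adjusted p = 0.0457, and -0.65 for LX-A3928, adjusted p = 0.0187). The Axin2 call with LX-A2003 was lost without LX-A1656 replicate 1 or 4 or LX-A2003 replicate 1, 2, 3 or 4 (-0.58 to -0.36, adjusted p = 0.063 to 0.256), and that with LX-A3928 without LX-A1656 replicate 1 or LX-A3928 replicate 2 (-0.45 to -0.43, adjusted p = 0.126 to 0.136). LX-A1656 replicate 1, which both share, is a library that stood apart. At 24 h, 2 of 9 genes passed between LX-A3928 and LX-A1656, where 2.9% of all genes passed: Axin2 (-1.44, adjusted p = 9.42e-05) and Tbx3 (-1.47, adjusted p = 0.0106) were lower with LX-A3928, the Tbx3 call being lost without LX-A3928 replicate 4 (-1.33, adjusted p = 0.0527). Between LX-A2003 and LX-A1656 at 24 h none passed by edgeR or DESeq2, where 0.284% of all genes passed, and 2 had an unadjusted p under 0.05, beside 8.85% of all genes.

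Between LX-A3928 and LX-A2003, no call was made among the 9 genes in the fit of all libraries. None passed by edgeR or DESeq2 at 24, 72 or 168 h, where 0.15%, 0.718% and 8.1% of all genes passed. At an unadjusted p under 0.05 the counts were 2, 1 and 0, beside 4.4%, 8.73% and 22.7% of all genes. With the compared libraries alone in the fit, Axin2 was called at 24 h, lower with LX-A3928 (-0.81, adjusted p = 0.0488). The approximate 95% interval of the log2 difference at 168 h (LX-A3928 minus LX-A2003, 2 SE each way) was -0.05 to 0.58 for Glul, -0.48 to 0.39 for Oat and -0.62 to 0.26 for Axin2. It was -0.84 to 0.29 for Lgr5, -0.30 to 0.71 for Rnf43 and -0.29 to 0.43 for Znrf3. For Tbx3, Lect2 and Rspo3 it was -0.50 to 0.86, -0.15 to 0.67 and -1.13 to 0.31. Intervals of this width do not show that the pair act alike. Over all genes, library totals moved the share of called genes that were higher to 28% and 26% for LX-A2003 and LX-A3928 over LX-A1656 at 72 h (50% and 50.4% with TMM), to 40.7% for LX-A3928 over LX-A1656 at 168 h (55.6%), and to 24% and 42.5% for LX-A3928 over LX-A2003 at 72 and 168 h (40.7% and 65.8%).

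**Figure D3:**
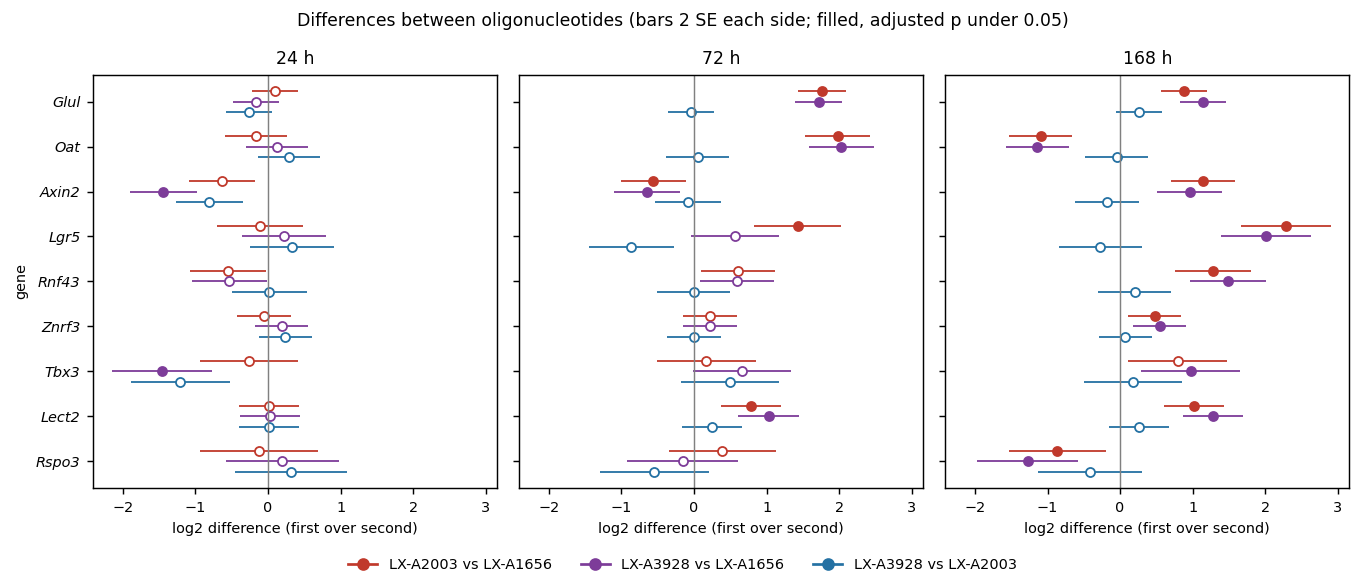
Log2 difference between oligonucleotides (x axes) for each of the 9 genes (y axes), in 1 panel per time, with bars of 2 SE each way and filled symbols where the adjusted p was under 0.05. The intervals of LX-A3928 minus LX-A2003 at 168 h all reach across 0, from -0.05 to 0.58 for Glul to -1.13 to 0.31 for Rspo3.

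Whether a response to an oligonucleotide differed between 24 and 168 h was tested as an interaction (the difference from PBS at 168 h minus that at 24 h). With LX-A1656, 7 of 9 genes passed (2 higher, 5 lower), where 47% of all genes passed. Lgr5 shifted by -2.68 on the log2 scale (adjusted p = 1.84e-06), Glul by -1.77 (adjusted p = 1.08e-08) and Rspo3 by 1.97 (adjusted p = 0.00387). With LX-A2003, 2 passed (1 higher, 1 lower), where 38.5% of all genes passed, and with LX-A3928, 2 passed (2 higher), where 32.4% passed. Axin2 shifted upward with both, by 1.11 for LX-A2003 (adjusted p = 0.00504) and 1.73 for LX-A3928 (adjusted p = 4.26e-05). With LX-A1656 its shift was -0.67 and did not pass (adjusted p = 0.0801). Library totals moved the share of called genes with a positive shift to 74.6%, 79.6% and 78.4% for LX-A1656, LX-A2003 and LX-A3928 (49.3%, 52% and 53.6% with TMM). In PBS livers alone, none of the 9 genes passed by edgeR or DESeq2 at 72 h against 24 h or at 168 h against 24 h, where 0.0789% and 1.03% of all genes passed. At 168 h against 24 h, DESeq2 gave no adjusted p for 1 of the 9, so it did not judge that gene. At an unadjusted p under 0.05 the counts were 0 and 1, beside 5.37% and 15.8% of all genes. At 168 h against 24 h in PBS livers, 34.4% of called genes were higher, and 18.9% with library totals.

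Other genes of the pericentral zone changed in both directions. Of 19 other pericentral genes tested, 2 rose and 10 fell with LX-A1656 at 72 h (median log2 fold change -0.59), 2 rose and 3 fell with LX-A2003 (0.02), and 3 rose and 2 fell with LX-A3928 (0.24; 2 and 1 without replicate 4). At 168 h the counts were 5 higher and 11 lower (-1.18), 5 higher and 10 lower (-0.58), and 5 higher and 9 lower (-0.26), the last median being 0.04 with library totals. Cyp2c29, a drug-metabolising cytochrome P450, fell at 168 h in LX-A1656, LX-A2003 and LX-A3928 livers (log2 fold changes -6.36, -5.54 and -4.05). Nr1i3, the xenobiotic receptor CAR, also fell with each (-2.67, -1.93 and -2.25), while Gstm3, a glutathione transferase, rose with LX-A2003 (4.02) and LX-A3928 (3.73). Cyp1a2, which metabolises caffeine among other compounds, fell as well (-4.06, -1.93 and -1.55).

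Of 16 periportal genes tested, 1 rose and 13 fell with LX-A1656 at 72 h (median -2.14), 0 rose and 5 fell with LX-A2003 (-0.45), and 0 rose and 4 fell with LX-A3928 (-0.19). At 168 h the counts were 5 higher and 7 lower with LX-A1656 (-0.04; 8 higher and 6 lower with library totals, median 0.44), 3 higher and 11 lower with LX-A2003 (-1.93), and 1 higher and 12 lower with LX-A3928 (-1.84; 2 and 12 without replicate 3). Hal, the histidine-degrading enzyme of the portal zone, fell in LX-A1656, LX-A2003 and LX-A3928 livers at 168 h (-3.57, -3.83 and -3.39). Cyp2f2, another portal cytochrome P450, fell likewise (-4.83, -4.07 and -3.18), and Cdh1, which encodes E-cadherin, rose with LX-A1656 (2.92). General hepatocyte markers moved in the same libraries: of 7 tested, 6, 6 and 5 fell at 168 h in LX-A1656, LX-A2003 and LX-A3928 livers and 0 rose, although with library totals the counts were 2, 4 and 3 lower and 1 higher in each. Their summed level was 39367 to 54372 CPM in LX-A1656 livers, 37240.3 to 46755 CPM in LX-A2003 livers and 33688 to 96658 CPM in LX-A3928 livers, against 73132 to 90959 CPM in PBS livers. The part of this shift in the changes of the zonal genes was not tested.

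**Figure D4:**
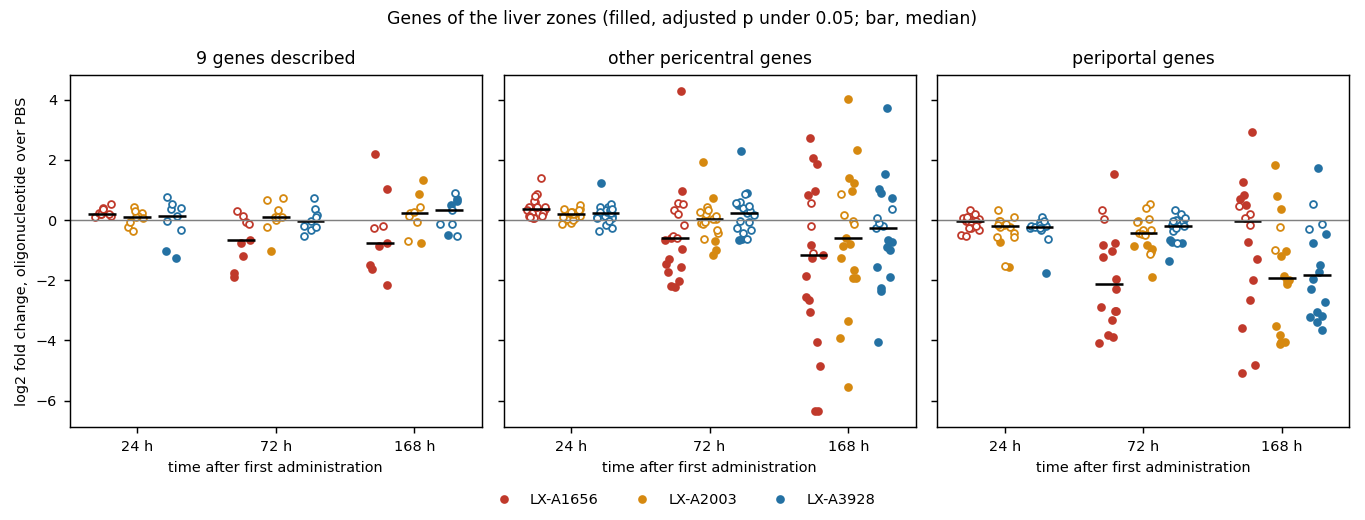
Log2 fold changes against PBS (y axis) of the 9 genes, the other pericentral genes and the periportal genes in each comparison, 1 point per gene tested, with a black bar at the median. The periportal median with LX-A1656 stands at -2.14 at 72 h and -0.04 at 168 h, and the median of the other pericentral genes at -0.59 and -1.18.

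Other genes of the Wnt pathway were counted by role. Of 6 ligand and secretion genes tested, 3 rose and 2 fell with LX-A1656 at 168 h, 2 rose with LX-A2003, and 1 rose and 1 fell with LX-A3928, with 0 called at 24 and 72 h. Wls, which carries Wnt proteins to the cell surface, rose with all 3 at 168 h (1.19, 0.70 and 0.74), and Wnt4 rose with LX-A1656 (1.72) and LX-A2003 (1.22). Wnt2, a ligand of central vein endothelium, was called in none of the 9 comparisons with PBS. Of 11 receptor and coreceptor genes tested, 0 rose and 8 fell with LX-A1656 at 72 h (1 and 5 with library totals). In that comparison 48.2% of all genes passed (24.7% higher, 23.4% lower). At 168 h, 3 rose and 5 fell with LX-A1656, 2 rose and 6 fell with LX-A2003, and 2 rose and 5 fell with LX-A3928, while with library totals these became 3 and 2, 4 and 2, and 4 and 2. Ror1, a Wnt receptor tyrosine kinase, fell with all 3 (-2.32, -2.31 and -2.25), as did Fzd7, a Frizzled receptor (-1.47, -1.30 and -1.15).

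Of 18 beta-catenin core and TCF genes tested, 3 rose and 2 fell with LX-A1656 at 72 h and 0 were called with LX-A2003 or LX-A3928. Over all genes, 48.2%, 12% and 9.8% passed. At 168 h, 7 rose and 3 fell with LX-A1656, 5 rose and 1 fell with LX-A2003 (6 and 2 of 19 tested without replicate 4), and 3 rose and 1 fell with LX-A3928. Over all genes, 63.9%, 55.1% and 48% passed. With TMM, the called share of the 18 was under that of all genes in each of these comparisons. Library totals gave 11 and 2, 12 and 1, and 7 and 1 at 168 h, where 8772, 7550 and 6602 of 12672 genes were called. Tcf7l2, the main TCF factor of liver, fell with all 3 at 168 h (-1.34, -1.12 and -1.19). Ctnnb1, the beta-catenin gene, stayed between -0.21 and 0.24 in the 9 comparisons with PBS and was called in none. Of 12 listed secreted inhibitors, 4 passed the low count filter, which a gene can pass through only the groups where it is high. The count of rises can therefore owe to the filter. Of the 4, 3 rose and 1 fell at 168 h with each oligonucleotide. All 12 summed to 46.9 to 61.1 CPM in LX-A1656 livers, 41.6 to 54.7 CPM in LX-A2003 livers and 21.3 to 52.3 CPM in LX-A3928 livers. PBS livers held 44.7 to 57.2 CPM. Frzb, a decoy for Wnt proteins, rose by 3.55, 3.07 and 2.52 in LX-A1656, LX-A2003 and LX-A3928 livers. Notum, a Wnt deacylase and itself a pericentral Wnt target, was the inhibitor that fell (-1.02, -0.63 and -0.88, the second not called with library totals). Frzb, Dkk3 and Sfrp1, the 3 that rose, can also be made by fibroblasts, and the part of the fibroblast markers given above in their rise was not tested.

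Of 11 other Wnt target genes tested, 4 rose and 3 fell with LX-A1656 at 72 h, 4 rose with LX-A2003 and 3 rose with LX-A3928. Over all genes, 48.2%, 12% and 9.8% passed. At 168 h, 5 rose and 1 fell, 5 rose and 2 fell, and 5 rose and 1 fell (5 and 2 for LX-A3928 without replicate 3). Over all genes, 63.9%, 55.1% and 48% passed. Jun, an immediate early transcription factor, rose by 2.85, 4.02 and 3.96, and Cd44, a hyaluronan receptor, by 3.42, 3.04 and 2.18. Ccnd1, the cell cycle gene for cyclin D1, rose by 2.25, 4.06 and 3.11. Of 13 glutamine, glutamate and ammonia genes tested beside Glul and Oat, 4 rose and 5 fell with LX-A1656 at 72 h. At 168 h, 8 rose and 2 fell, 7 rose and 3 fell, and 7 rose and 4 fell in LX-A1656, LX-A2003 and LX-A3928 livers. Slc1a5, a glutamine transporter, rose in each (4.72, 3.15 and 2.92), and so did Slc38a4, an amino acid transporter (4.68, 2.92 and 2.86).

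**Figure D5:**
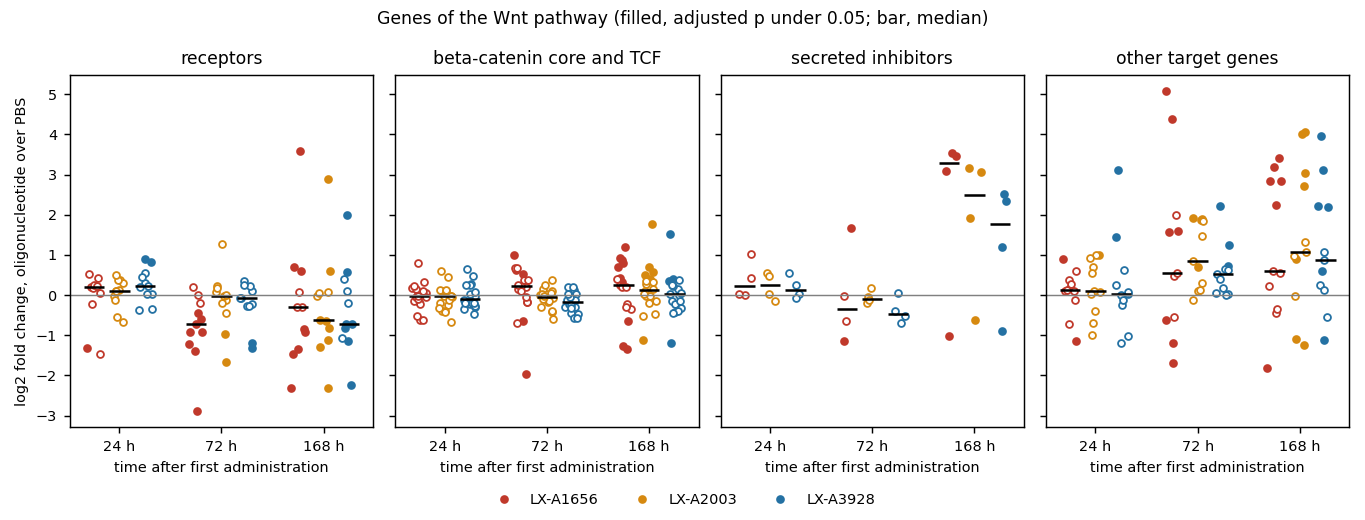
Log2 fold changes against PBS (y axis) of Wnt receptors, beta-catenin core and TCF genes, secreted inhibitors and other Wnt target genes in each comparison, 1 point per gene tested, with a black bar at the median. The median of the 4 secreted inhibitors that passed the low count filter, of 12 listed, stands at 3.28, 2.49 and 1.76 at 168 h for LX-A1656, LX-A2003 and LX-A3928.

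Markers of other cells were followed in the same livers. At 24 h, 0 to 3 genes of each list were called in a comparison, where 2.86%, 2.09% and 3.26% of all genes passed. Kdr and Stab2, both of sinusoidal endothelium, fell with every oligonucleotide (-2.78, -0.96 and -0.91 for Kdr). Of 12 sinusoidal and pan-endothelial markers, 0 rose and 7 fell with LX-A1656 at 72 h, and their summed level was 277 to 332 CPM, against 539 to 619 CPM in PBS livers. At 168 h, 3 rose and 6 fell with LX-A1656, 3 rose and 6 fell with LX-A2003, and 4 rose and 5 fell with LX-A3928 (5 and 5, 5 and 5, and 4 and 4 with library totals). Of 6 monocyte, macrophage and neutrophil markers tested, 6, 4 and 6 rose at 168 h, and of 10 stellate and fibroblast markers 9, 8 and 7 rose, with 0 lower. Of 6 Kupffer cell markers, 3 rose and 2 fell with LX-A1656, 3 rose and 1 fell with LX-A2003 (3 and 0 without replicate 4), and 4 rose with LX-A3928 (2 without replicate 3). Of 5 cholangiocyte markers tested, 2 rose and 1 fell, 2 rose, and 2 rose and 1 fell (1 and 0 without replicate 3), and of 3 lymphocyte markers tested, 1, 2 and 1 rose.

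The genes whose group means ran most like each of the 9 were found by Pearson correlation over the 12 group means of log2 CPM, which share libraries and depth and are given as a description. Glul ran with Ncald (0.977) and Fmo1 (0.974), Lgr5 with Alad (0.950) and Ube4b (0.936), and Lect2 with Pdzd2 (0.935) and Ccr3 (0.931). Tbx3 ran with Wbscr22 (0.921) and Oma1 (0.920), Rnf43 with Btnl9 (0.919), Axin2 with Tpgs1 (0.877), Znrf3 with Dpp7 (0.865) and Rspo3 with Clec4a1 (0.944). Among themselves, Glul and Lect2 were the most alike (0.826), then Lgr5 and Lect2 (0.809), and Tbx3 and Rspo3 the least (-0.693). The highest correlation of Oat with another of the 9 was 0.413, with Glul, and that of Axin2 was 0.296, with Rnf43.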

How the data were processed

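Total RNA from mouse livers was extracted in TriPure after bead homogenization and amplified with an Ion AmpliSeq mouse transcriptome kit, per the labels' protocols; each gene is read from a designed amplicon. What the authors deposited is 1 table of unnormalized counts, made with an aligner, build and strand setting not given in the sources used here. All 48 columns were joined to samples by the library names in the labels.

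The table was filtered with filterByExpr in edgeR 4.0.16 (R 4.3.3), scaled with TMM and fitted as 1 robust quasi-likelihood model of 12 group means, with 36 residual degrees of freedom. Its F test gave 23 comparisons, each adjusted (Benjamini-Hochberg) over all 12672 genes that entered the fit, and an adjusted p under 0.05 made a call. SE is the log2 fold change divided by the root of F. CPM values use TMM library sizes. Alternatives were RLE scaling, library totals, no low count filter, DESeq2 1.42.0, the compared libraries alone, a replicate block and leaving out each library. The procedure was tested on simulated counts.

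The 10 genes and 16 comparison lists were chosen with earlier results of these data known. All matched members are named; from each list, up to 4 called genes with the smallest p in a comparison were eligible, plus genes marked as chosen later and Wnt2, Ctnnb1 and Alb. Lists were described by counts and medians, with no test of the list.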

Additional observations from a re-analysis of the deposited data

Results flagged for a closer look

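In 2 of 108 sets of 4 replicates, 1 library lay far from the other 3 by Dixon's ratio, where chance gives about 1 in 20. Znrf3 in LX-A2003 livers at 72 h was lowest in replicate 3, at 13.9 CPM, beside 15.5, 15.7 and 15.7 CPM (ratio 0.864). Lect2 in LX-A1656 livers at 24 h was lowest in replicate 4, at 365 CPM, beside 492, 499 and 516 CPM (ratio 0.84).

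The difference from PBS was not the same at 168 h as at 24 h for 11 combinations of gene and oligonucleotide, by the edgeR interaction test. With LX-A1656 the shifts on the log2 scale were -1.77 for Glul, 0.78 for Oat, -2.68 for Lgr5, -1.05 for Rnf43, -1.70 for Tbx3, -0.88 for Lect2 and 1.97 for Rspo3, with adjusted p-values of 1.08e-08 (Glul) to 0.033 (Oat). With LX-A2003 they were -0.98 for Glul (adjusted p = 0.00047) and 1.11 for Axin2 (adjusted p = 0.00504). With LX-A3928 they were 1.73 for Axin2 (adjusted p = 4.26e-05) and 0.96 for Rnf43 (adjusted p = 0.0379). The Rnf43 call with LX-A1656 was lost without PBS 168 h replicate 3 (-0.65, adjusted p = 0.125). The Rnf43 call with LX-A3928 and the Oat call with LX-A1656 were each lost on leaving out any of 8 single libraries, at 0.71 to 0.96, adjusted p = 0.0528 to 0.109 for Rnf43 and 0.64 to 0.77, adjusted p = 0.0501 to 0.0904 for Oat. With library totals the Rnf43 and Lect2 shifts with LX-A1656 and the Glul shift with LX-A2003 were not called.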

How the results depend on the processing

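Counts of called members moved by over 1.5 times as follows. Without the low count filter, 1 member passed for LX-A3928 against PBS at 24 h (2 with it), 0 for LX-A2003 at 72 h (1), 2 for LX-A3928 at 168 h (4) and 1 for the LX-A3928 shift between 24 and 168 h (2). With the compared libraries alone, the counts were 5 for LX-A3928 at 24 h, 2 for LX-A2003 and 1 for LX-A3928 at 72 h (0), 1 for LX-A3928 at 168 h, 1 for LX-A3928 against LX-A2003 at 24 h (0) and 1 for the LX-A3928 shift. DESeq2 gave 2 for LX-A2003 at 72 h, and library totals gave 5 for LX-A2003 at 168 h (3), where 7550 of all genes were called (6987 with TMM). Leaving out 1 library gave 1 to 2 for LX-A3928 at 24 h, 0 to 1 for LX-A2003 and for LX-A3928 at 72 h, 3 to 5 for LX-A2003 at 168 h, 2 to 4 for LX-A3928 at 168 h, 1 to 2 for LX-A3928 against LX-A1656 at 24 h and 1 to 2 for the LX-A3928 shift. Among called values, the 1 that changed sign was Lect2 with LX-A3928 at 168 h, at -0.0057 without LX-A3928 replicate 3 and up to 0.72 without another library; 124 values in all changed sign, 21 of them with library totals. Over single genes and comparisons, library totals ended 10 calls and added 7, no filter ended 10, the compared libraries alone ended 9 and added 13, DESeq2 added 2, and RLE scaling ended or added 0; leaving out libraries ended 69 and added 25 with 1777 on the same side.

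Counts over other lists, without 1 of the 5 libraries picked as standing apart (chosen after seeing the data), are given beside those printed above that moved by over 1.5 times. No such counts are given for LX-A1656 at 168 h. The causes were not tested.

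Replicate numbers did not pair samples: correlations of same-numbered deviations ran from -0.392 to 0.435, and in 0 of 9 comparisons were all above 0.1. A replicate block ended 2 calls, Axin2 for LX-A2003 against LX-A1656 at 72 h (-0.55, adjusted p = 0.0574) and Lect2 with LX-A3928 at 168 h (0.47, adjusted p = 0.0616), and left counts within 1.5 times. Rspo3, at 0 to 97 counts per library, is the gene that depth limits most.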
